A study of Homo sapiens with 9 samples.

Results

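The genes described here belong by name to kelch-repeat families that include adaptors of cullin-RING ubiquitin ligases. They were measured in a human B-cell line before and after sulforaphane. Members were taken by name. They are all genes with a transcript cluster of their own whose symbol is KLHL, KBTBD or KLHDC followed by a number, except that KEAP1 was left out. A transcript cluster is the set of exon probes that the array groups as 1 gene. The rule gave 46 of the 14232 genes with a cluster of their own: 31 KLHL, 5 KBTBD and 10 KLHDC genes. KLHL23 had 2 clusters and KLHDC10 had 3, and each was read from its brightest cluster, judged by the mean of the 9 arrays. The symbols KBTBD4, KBTBD6, KBTBD7, KLHL1, KLHL18 and KLHL41 occurred only in clusters shared with other genes and have no value here.

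A cullin-RING ligase is built on a cullin scaffold that holds a RING protein at one end and a substrate adaptor at the other. Most KLHL and KBTBD proteins bind CUL3 through an N-terminal BTB domain and hold the substrate with a kelch propeller, so the adaptor decides which protein receives ubiquitin. Several KLHDC proteins have the propeller without the BTB domain and work with CUL2 and the elongins. KEAP1, the BTB-kelch adaptor that presents the transcription factor NRF2 to CUL3, is the protein whose cysteines sulforaphane modifies, and the members are its structural relatives.

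The cells were GM12878, an established lymphoblastoid line, that is B cells immortalised with Epstein-Barr virus. The line comes from 1 donor, so each group shows this line only. Per the labels, cultures held 900000 cells per ml in medium with 15% serum. One group of 3 cultures was untreated and collected at 0 h, another group of 3 received 10 µM D,L-sulforaphane, an isothiocyanate of cruciferous plants, for 8 h, and the last 3 received it for 24 h. The labels mention a vehicle of 0.1% DMSO, but do not say whether the 0 h cultures received it. Arrays of cells kept for 8 h or 24 h with vehicle alone were not used here, so time in culture and treatment cannot be told apart. Each culture gave 1 Affymetrix Human Exon 1.0 ST array. Values are log2 RMA signals, in which 1 unit is a doubling. They are relative within a gene, because probe sets differ in brightness, so levels are not compared between genes. Fewer cells of a type and less RNA per cell cannot be told apart in such bulk samples.

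The mean signal lay between 7.97 and 8.14 on the 9 arrays. Untreated replicate 2 stood apart: it had the lowest mean, and a first principal component score of 54.4 against -29.9 to 16.4 on the others. It was the lowest of the 9 arrays for 19 of the 46 members (41.3%), against 30.4% of all 22011 clusters. In 15 members its signal was more than 0.3 below the mean of the other untreated arrays, and in 0 members more than 0.3 above it. Where leaving out that array ends a call, turns a direction or moves a described difference from 0 h by over 1.5 times, both values are given. Differences of 10 members at 8 h and of 4 at 24 h changed sign without it, none larger than 0.217 in size with all arrays. For the B-cell label, 11 of 12 B-cell markers were measured, with mean signals between 10.26 and 13.65. Their summed level, the log2 of their mean linear signal, lay between 12.57 and 12.67 on every array. For other cells it lay between 7.64 and 8.18 (T-cell markers, 7 of 7 measured), 6.48 and 6.92 (myeloid, 5 of 7), 7.96 and 8.18 (muscle, 5 of 8) and 7.53 and 7.85 (keratinocyte, 4 of 6). These lists use different probes and there were no detection calls, so their levels cannot be ranked and do not test the label. No marker of the 5 lists was called in any comparison.

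Over the family, 2 members rose at 24 h, KLHL24 by 2.25-fold and KLHL28 by 1.34-fold, and 0 fell. That is 4.35% of members, beside 1.62% of all clusters called in this comparison (0.831% rose and 0.791% fell). Calls here and below need an adjusted p under 0.05 in limma's moderated test, with Benjamini-Hochberg adjustment over all clusters. At 8 h 0 of 46 members were called, beside 0.595% of all clusters, and 5 had an unadjusted p below 0.05 (10.9%, against 15.1% of clusters). From 8 h to 24 h 0 members were called, beside 0.327%, and 4 had an unadjusted p below 0.05 (8.7%, against 10.4%). An F-test for any change among the 3 times called KLHL24 alone (adjusted p = 0.048), 2.17% of members beside 1.35% of clusters.

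KLHL24 changed most in both comparisons with 0 h. Its protein is known from skin, where it directs keratin 14 to degradation, and mutations of its start codon cause a blistering disease. The signal of its cluster, 2655113, was 8.29, 7.72 and 8.15 in the untreated cultures, 9.12, 9.03 and 8.93 at 8 h, and 9.60, 8.93 and 9.13 at 24 h. Every treated array lay above every untreated array, and the ranges at 8 h and 24 h overlapped. The group means were 8.05 ± 0.298 (SD, n = 3), 9.03 ± 0.0935 and 9.22 ± 0.343. The difference from 0 h was 0.98 ± 0.19 (SE; 95% interval 0.53 to 1.42) at 8 h, or 1.97-fold, with an adjusted p of 0.070. At 24 h it was 1.17 ± 0.19 (0.72 to 1.61), with an adjusted p of 0.033. The step from 8 h to 24 h was 0.19 ± 0.19 (-0.25 to 0.64, adjusted p = 0.78), so most of the 24 h difference was already present in the 8 h means. Without untreated replicate 2 the differences were 0.81 at 8 h (adjusted p = 0.098) and 1.00 at 24 h (adjusted p = 0.056), and the F-test gave an adjusted p of 0.072. Leaving out each array in turn, the 24 h difference stayed between 0.98 and 1.31. It passed in the fit without untreated replicate 1 (adjusted p = 0.036) and in none of the other 8, where the adjusted p lay between 0.054 and 0.10. Fitted to the untreated and 24 h arrays alone, its adjusted p was 0.12.

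**Figure D1:**
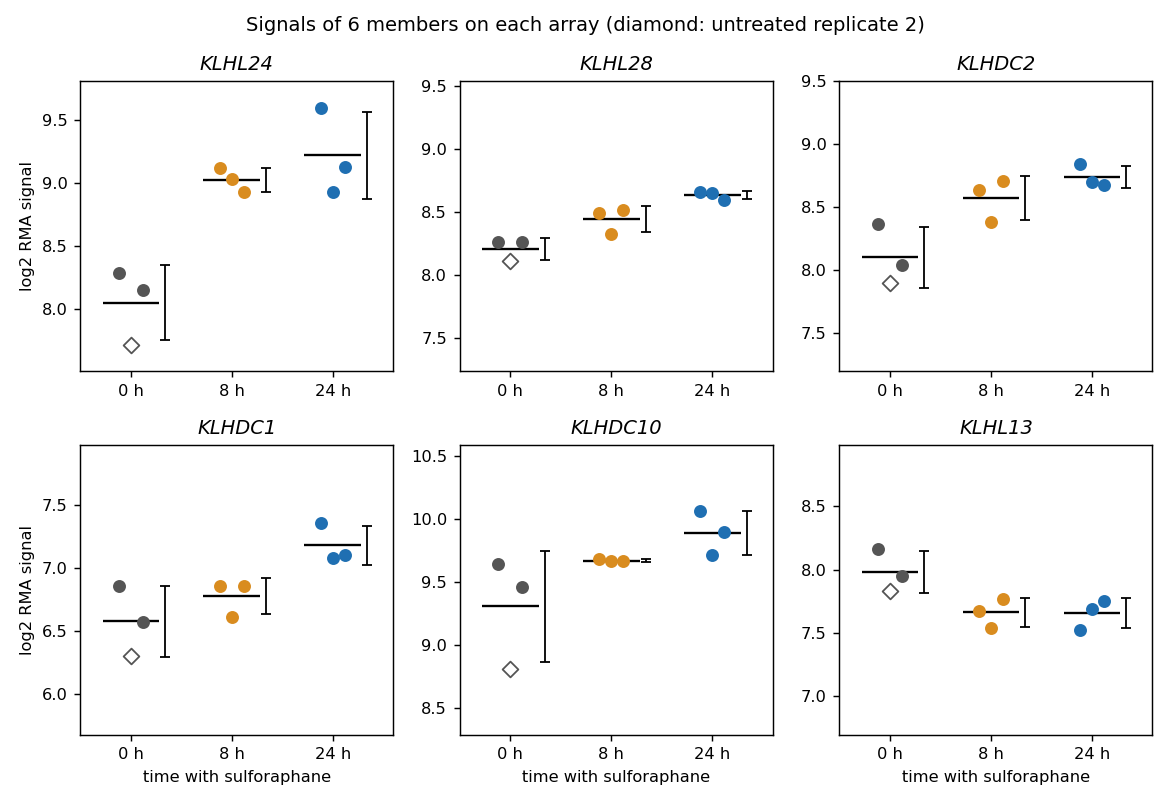
Log2 RMA signal (vertical axis, placed separately in each panel but spanning the same height of signal) of 6 members by time with sulforaphane. Points are single arrays, the diamond is untreated replicate 2, horizontal bars are means and vertical bars are 1 SD (n = 3); KLHL24 is higher on all 6 treated arrays than on any untreated array, and KLHL13 is lower.

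The windows upstream of KLHL24, KLHL28 and KLHDC2, the 3 members with the smallest p at 24 h, are shown so that the letters can be read beside the values. They hold the 250 bases before the transcript start in RefSeq on GRCh38.p14, read on the gene's strand. Capitals mark the letters that matched a searched motif, and the window of KLHL28 had no match.
KLHL24, chr3:183635373-183635622, plus strand: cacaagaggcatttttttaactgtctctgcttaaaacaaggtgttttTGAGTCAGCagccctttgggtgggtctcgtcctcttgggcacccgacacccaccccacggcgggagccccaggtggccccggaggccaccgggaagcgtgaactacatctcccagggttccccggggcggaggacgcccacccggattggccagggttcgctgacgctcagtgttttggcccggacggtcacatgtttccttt
KLHL28, chr14:44961486-44961735, minus strand: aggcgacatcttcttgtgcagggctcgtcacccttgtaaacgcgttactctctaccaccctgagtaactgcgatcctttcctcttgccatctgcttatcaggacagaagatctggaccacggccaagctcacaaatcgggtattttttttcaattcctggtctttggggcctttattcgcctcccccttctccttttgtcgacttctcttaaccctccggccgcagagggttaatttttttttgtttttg
KLHDC2, chr14:49767903-49768152, plus strand: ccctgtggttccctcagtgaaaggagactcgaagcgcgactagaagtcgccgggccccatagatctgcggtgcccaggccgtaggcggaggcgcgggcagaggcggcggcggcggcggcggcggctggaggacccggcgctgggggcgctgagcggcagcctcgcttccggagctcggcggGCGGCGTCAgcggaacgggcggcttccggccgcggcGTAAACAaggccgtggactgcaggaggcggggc

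Motifs were searched on both strands in the 49 windows of the 38 members that the RefSeq table holds, and in all 35116 windows of the table. TGACNNNGC, a core form of the antioxidant response element that NRF2 binds, was in 12.2% of member windows and 10.9% of all. Its member matches were in KLHDC2, KLHL12, KLHL13, KLHL21, KLHL32 and KLHL40. Forms with another base in place of the first C were not counted in this search, so the matches are not every possible NRF2 site. TGANTCAGC, an AP-1 type site followed by GC, was added after the letters upstream of KLHL24 had been seen. It was in KLHL21, KLHL24 and KLHL40, or 6.12% of member windows against 1.11% of all, and its form with C at the free position also satisfies the first motif. In KLHL24 it read TGAGTCAGC and began at position -203 from the start. That match was known when the motif was chosen, so these shares do not test an excess among members. GTAAACA, a site of FOXO factors, was in KLHDC2 and KLHL3 (4.08% against 2.98%). The heat shock element, bound by HSF1, was in 0 member windows and 0.441% of all. A match describes letters in a window and was not measured as binding.

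KLHL28, on chromosome 14, was the other member to rise. Its signal (cluster 3562671) was 8.26, 8.11 and 8.26 in untreated cultures, 8.49, 8.33 and 8.52 at 8 h, and 8.66, 8.65 and 8.60 at 24 h. The 3 groups did not overlap, and the order was 0 h, 8 h, 24 h. The mean went from 8.21 ± 0.0876 (SD, n = 3) to 8.45 ± 0.103 and 8.63 ± 0.0304. The difference at 24 h was 0.42 ± 0.07 (0.25 to 0.59, adjusted p = 0.038), and at 8 h it was 0.24 ± 0.07 (adjusted p = 0.19). The SD was below that of KLHL24 at 0 h and 24 h and above it at 8 h. The 24 h difference was 0.37 without untreated replicate 2 (adjusted p = 0.059). With untreated replicate 1 left out it passed at an adjusted p of 0.041, and with 8 h replicate 2 left out at 0.034, while the other 7 fits without 1 array gave values between 0.059 and 0.15. With the untreated and 24 h arrays alone its adjusted p was 0.097.

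Of the 10 KLHDC genes 0 passed, although KLHDC2, KLHDC1 and KLHDC10 had larger differences at 24 h than KLHL28. KLHDC2 encodes a CUL2 adaptor that reads C-terminal degrons ending in glycine. Its signal was 8.37, 7.90 and 8.04 at 0 h, 8.64, 8.38 and 8.71 at 8 h, and 8.84, 8.70 and 8.68 at 24 h. Untreated and treated arrays did not overlap. The difference was 0.47 ± 0.14 at 8 h (0.16 to 0.78, adjusted p = 0.16) and 0.64 ± 0.14 at 24 h (0.33 to 0.94, 1.55-fold, adjusted p = 0.065). The latter was 0.54 without untreated replicate 2 (adjusted p = 0.12), and it was called with quantile normalization (adjusted p = 0.041), with centred arrays (0.047), without the lowest 25% of clusters (0.042) and without untreated replicate 1 (0.029). KLHDC1 lies next to KLHDC2 on chromosome 14, on the same strand, in the GRCh38.p14 annotation. Its signal was 6.86, 6.30 and 6.57, then 6.86, 6.61 and 6.86, then 7.36, 7.08 and 7.10. The 24 h arrays lay above all others, while the 8 h arrays overlapped the untreated ones. The difference was 0.20 ± 0.15 at 8 h and 0.60 ± 0.15 at 24 h (0.26 to 0.95, adjusted p = 0.098), and 0.40 ± 0.15 from 8 h to 24 h (0.05 to 0.75, adjusted p = 0.40). Leaving out untreated replicate 2 gave 0.07 at 8 h and 0.47 at 24 h (adjusted p = 0.16), and leaving out untreated replicate 1 gave 0.75 at 24 h, which was called (adjusted p = 0.040).

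KLHDC10 and KLHDC3 also encode CUL2 adaptors for C-terminal degrons. KLHDC10 had signals of 9.64, 8.81 and 9.46 at 0 h, 9.68, 9.66 and 9.66 at 8 h, and 10.06, 9.71 and 9.89 at 24 h. The untreated arrays spread more widely than the group means differed, although every treated array lay above every untreated one. The difference was 0.36 ± 0.20 at 8 h (adjusted p = 0.42) and 0.58 ± 0.20 at 24 h (adjusted p = 0.18). These were 0.12 and 0.34 without untreated replicate 2. The other 2 clusters of KLHDC10 differed by 0.65 ± 0.26 and 0.08 ± 0.37 at 24 h, with intervals of 0.04 to 1.25 and -0.77 to 0.93 that both hold 0.58. KLHDC3 went from 10.20, 9.82 and 10.28 to 10.53, 10.36 and 10.48 at 24 h, a difference of 0.35 ± 0.12 (adjusted p = 0.17) that was 0.21 without untreated replicate 2 (adjusted p = 0.19). The remaining KLHDC genes were KLHDC4, KLHDC7A, KLHDC7B, KLHDC8A, KLHDC8B and KLHDC9. Among these KLHDC7B had the lowest difference from 0 h at 8 h. Its signals were 7.86, 8.34 and 8.23 at 0 h, 7.71, 7.99 and 7.92 at 8 h, and 7.89, 8.00 and 8.19 at 24 h. The groups overlapped, and the 8 h difference was -0.27 ± 0.14 (adjusted p = 0.40), or -0.17 without untreated replicate 2. KLHDC8A had signals of 7.41, 7.64 and 7.41, then 7.41, 7.60 and 7.39, then 7.31, 7.33 and 7.41, with a difference of -0.12 ± 0.09 from 8 h to 24 h (adjusted p = 0.70).

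Of the 5 measured adaptors with known roles in mitosis, 0 passed in any comparison. KLHL9 and KLHL13 together with CUL3 modify Aurora B, the kinase of the chromosomal passenger complex, and KLHL21 acts on the same kinase at anaphase. KLHL13 had the lowest difference of all members at both times. Its signal was 8.16, 7.83 and 7.95 at 0 h, 7.67, 7.54 and 7.77 at 8 h, and 7.52, 7.69 and 7.75 at 24 h. Every treated array lay below every untreated one. The difference was -0.32 ± 0.11 at 8 h (-0.56 to -0.07, adjusted p = 0.22) and -0.32 ± 0.11 at 24 h (-0.57 to -0.08, adjusted p = 0.17). It was larger in size at 24 h without untreated replicate 2, at -0.40 (adjusted p = 0.13). KLHL21 lay the other way, with 7.70, 7.83 and 7.79 at 0 h, 7.97, 8.01 and 7.94 at 8 h, and 8.06, 7.98 and 8.08 at 24 h. Its groups with and without treatment did not overlap, and the difference was 0.21 ± 0.06 at 8 h (adjusted p = 0.17) and 0.27 ± 0.06 at 24 h (adjusted p = 0.076). The latter was 0.30 without untreated replicate 2. KLHL9 differed by 0.13 ± 0.12 at 24 h (adjusted p = 0.54). KLHL22, which modifies PLK1 at kinetochores, differed by 0.07 ± 0.06 (-0.07 to 0.21, adjusted p = 0.48). KLHL42, an adaptor for the microtubule-severing enzyme katanin, differed by -0.08 ± 0.08 (adjusted p = 0.52).

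Neither adaptor with a known role in B cells passed the test. KLHL6, which is needed for germinal centres and is mutated in B-cell lymphoma, had signals of 10.64, 10.06 and 10.64 at 0 h, 10.64, 10.53 and 10.60 at 8 h, and 10.91, 10.72 and 10.85 at 24 h. The 24 h arrays lay above the untreated ones, and untreated replicate 2 was far below the other arrays. The 24 h difference was 0.38 ± 0.15 (0.03 to 0.73, adjusted p = 0.22), and 0.19 without that array. KLHL14 differed by -0.11 ± 0.13 at 24 h (-0.41 to 0.19, adjusted p = 0.61).

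Adaptors of signalling and membrane traffic had differences above 0 at 24 h in 5 of 5 cases, where 53.1% of all clusters lay above 0, and 0 passed. KLHL2 and its close relative KLHL3 target the WNK kinases that control salt transport, and KLHL3 is mutated in an inherited hypertension. KLHL2 had signals of 8.68, 8.04 and 8.58 at 0 h, 8.63, 8.45 and 8.39 at 8 h, and 8.94, 8.77 and 8.87 at 24 h. Its 24 h arrays lay above all others, with a difference of 0.43 ± 0.16 from 0 h (adjusted p = 0.21) and 0.37 ± 0.16 from 8 h (adjusted p = 0.48). KLHL3 differed by 0.21 ± 0.11 at 24 h (adjusted p = 0.31). KLHL12, which modifies SEC31A in COPII coats, differed by 0.45 ± 0.20 (adjusted p = 0.25), and KLHL20, which targets the kinase DAPK1 and the tumour suppressor PML, by 0.34 ± 0.13 (adjusted p = 0.22). KLHL25, an adaptor for ATP-citrate lyase and 4E-BP1, differed by 0.05 ± 0.07 (adjusted p = 0.71). Without untreated replicate 2 the 24 h differences were 0.23 for KLHL2, 0.07 for KLHL3, 0.22 for KLHL12 and 0.18 for KLHL20.

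Beside KLHL24, the measured adaptors of the cytoskeleton list were KLHL4, KLHL5 and KLHL17. KLHL5, a relative of the actin-binding KLHL1, differed by 0.46 ± 0.19 at 24 h (0.02 to 0.90, adjusted p = 0.23). That value was 0.22 without untreated replicate 2, and untreated replicate 2 read 7.61 where the other untreated arrays read 8.34 and 8.31. KLHL17, an actin-binding protein of neurons, differed by -0.11 ± 0.07 (adjusted p = 0.34), and KLHL4 by -0.10 ± 0.09 (adjusted p = 0.50), or by -0.055 and -0.025 without untreated replicate 2. The 3 muscle adaptors measured were all slightly below 0 at 24 h and none passed. The differences were -0.19 ± 0.11 for KLHL31, -0.08 ± 0.07 for KLHL40, which stabilises the thin-filament protein LMOD3, and -0.14 ± 0.07 for KBTBD12 (adjusted p = 0.34, 0.50 and 0.28). KBTBD12 had signals of 6.27, 6.33 and 6.39, then 6.31, 6.28 and 6.28, then 6.07, 6.29 and 6.22, and from 8 h to 24 h it differed by -0.10 ± 0.07 (adjusted p = 0.68).

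Of the other KBTBD genes, KBTBD2 and KBTBD8 spread widely between untreated cultures (SD 0.478 and 0.505), and KBTBD3 and KBTBD11 did not (SD 0.0706 and 0.121). KBTBD2, which controls the amount of the p85 subunit of PI3K, read 8.41, 7.49 and 8.19 at 0 h and 8.73, 8.31 and 8.38 at 24 h. Its groups overlapped, and the difference of 0.44 ± 0.22 (adjusted p = 0.29) was 0.17 without untreated replicate 2. KBTBD8, an adaptor of neural crest development that modifies the nucleolar proteins NOLC1 and TCOF1, differed by 0.39 ± 0.27 (adjusted p = 0.40), or 0.10 without that array. KBTBD3 read 5.78, 5.71 and 5.86 at 0 h and 6.19, 5.95 and 6.31 at 24 h, and its difference of 0.37 ± 0.10 (adjusted p = 0.10) was 0.34 without that array. KBTBD11 differed by -0.12 ± 0.08 (adjusted p = 0.42), or by -0.047 without it.

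Among KLHL genes without a role group, KLHL23 had the largest difference from 8 h to 24 h of all members. It read 8.72, 8.11 and 8.96 at 0 h, 8.37, 8.35 and 8.34 at 8 h, and 8.83, 8.67 and 8.95 at 24 h. The 8 h arrays lay within the untreated range and below all 24 h arrays. The step from 8 h to 24 h was 0.46 ± 0.19 (0.02 to 0.90, adjusted p = 0.45). Its second cluster gave 0.33 ± 0.26 for that step. The 8 h difference was -0.25 ± 0.19 with all arrays and -0.49 without untreated replicate 2 (adjusted p = 0.081). The 24 h difference was 0.22 ± 0.19 with all arrays and -0.02 without that array. KLHL11, the antigen of an autoimmune brain disease seen with germ cell tumours, read 7.69, 7.25 and 7.53 at 0 h, 7.69 on each 8 h array and 7.89, 7.91 and 7.92 at 24 h. The 24 h difference was 0.42 ± 0.10 (0.18 to 0.65, adjusted p = 0.096), or 0.30 without untreated replicate 2. KBTBD3 and KLHL11 were singled out after their values were seen.

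KLHL7, mutated in a form of retinitis pigmentosa, read 7.99, 8.30 and 8.17 at 0 h, 8.02, 7.92 and 7.60 at 8 h, and 7.66, 7.88 and 8.24 at 24 h. Its groups overlapped, with differences of -0.31 ± 0.17 at 8 h (adjusted p = 0.42) and -0.23 ± 0.17 at 24 h (adjusted p = 0.43). KLHL30 read 7.39, 7.70 and 7.44, then 7.56, 7.42 and 7.30, then 7.23, 7.41 and 7.24. It differed by -0.22 ± 0.11 at 24 h (adjusted p = 0.28; -0.12 without untreated replicate 2) and by -0.14 ± 0.11 from 8 h to 24 h (adjusted p = 0.71). KLHL8 and KLHL36 differed by 0.40 ± 0.20 and 0.22 ± 0.10 at 24 h (adjusted p = 0.29 and 0.27), and by 0.16 each without untreated replicate 2. The members not yet given a value, KLHL10, the adaptor of spermatids, KLHL26, KLHL29, KLHL32, KLHL34 and KLHL35, and KLHDC4, KLHDC7A, KLHDC8B and KLHDC9, lay between -0.15 for KLHL35 and 0.23 for KLHDC9 at 24 h. None passed in any comparison.

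**Figure D2:**
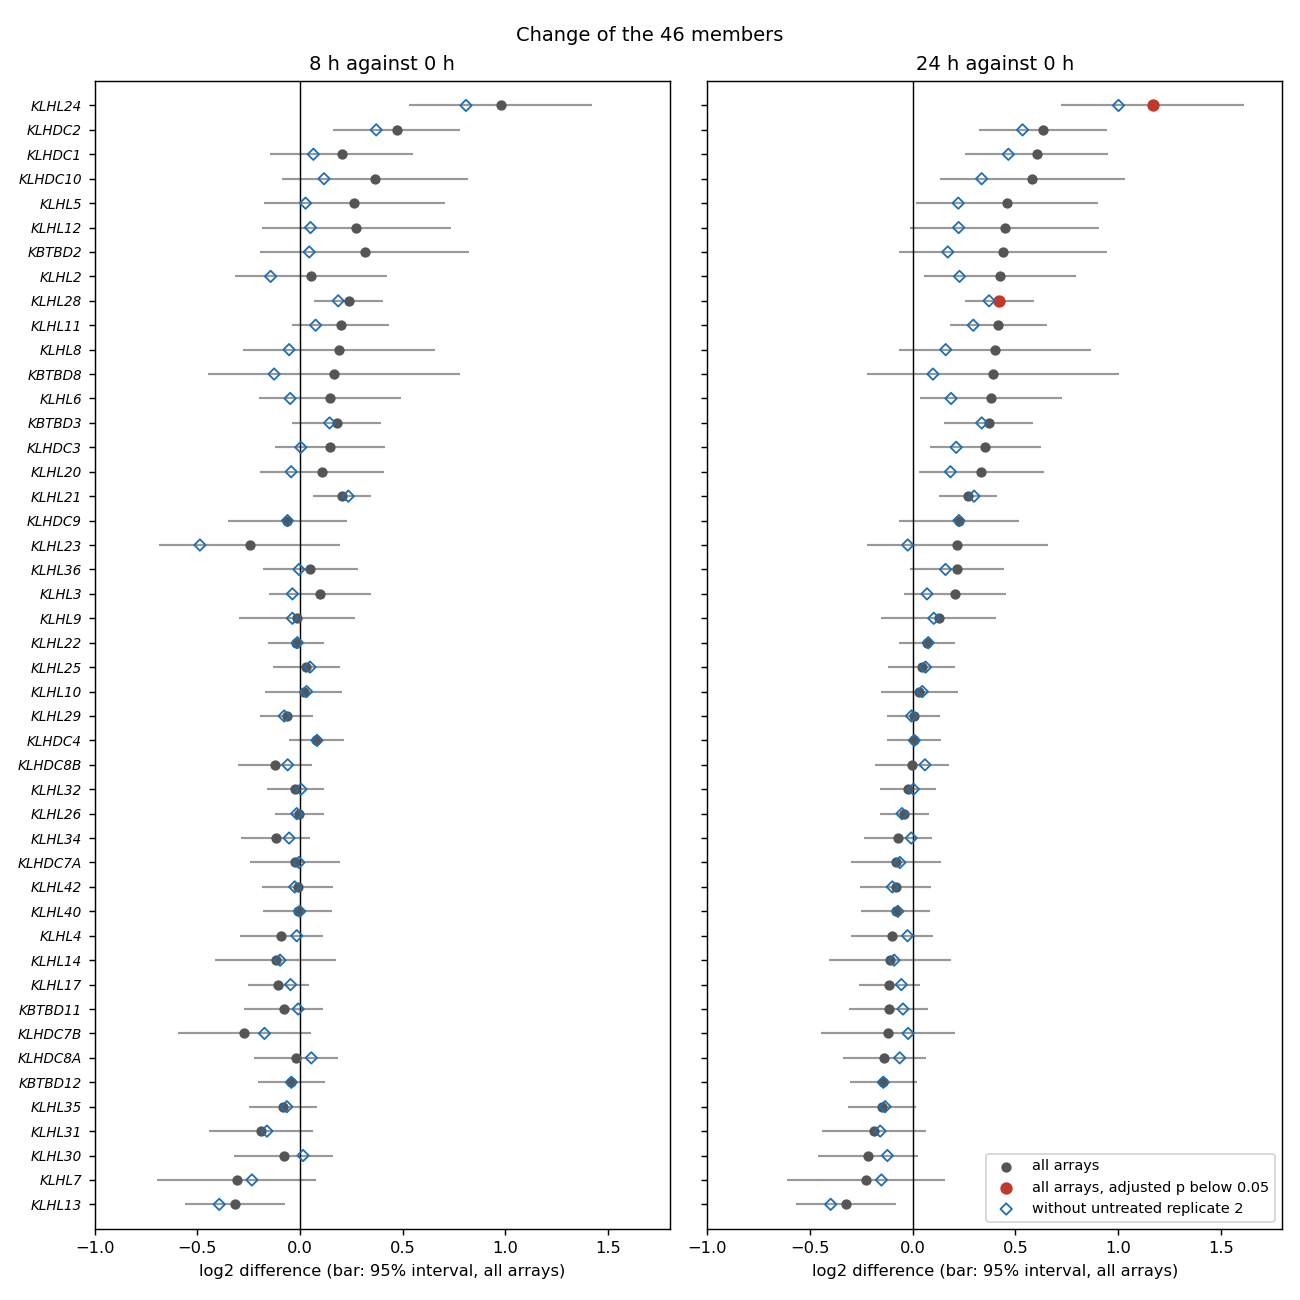
Log2 difference from 0 h (horizontal axis) of each of the 46 members at 8 h (left) and 24 h (right), ordered by the 24 h value. Filled points use all arrays with 95% intervals as bars, red marks an adjusted p below 0.05 and open diamonds leave out untreated replicate 2; KLHL24 and KLHL28 are the red points, and for KLHL5 the diamond stands at 0.22 where the point stands at 0.46.

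Across the family the members did not move as a block. At 8 h the differences ran from -0.317 for KLHL13 to 0.976 for KLHL24, 22 of 46 lay above 0 (47.8%, against 47.0% of all clusters), and the median was -0.007 beside -0.012 for all clusters. All treated arrays lay above all untreated ones in 8 members at 8 h (17.4%, against 9.06% of clusters): KBTBD3, KLHDC2, KLHDC4, KLHDC10, KLHL12, KLHL21, KLHL24 and KLHL28. They lay below in KLHL13 and KLHL34 (4.35%, against 8.55%). At 24 h the differences ran from -0.324 to 1.17, and 27 lay above 0 (58.7%, against 53.1%). Separation upwards held in 16 members at 24 h (34.8%, against 15.6%), and downwards in KLHL13 (2.17%, against 8.75%). The median at 24 h was 0.058 beside 0.017 for all clusters, and it was -0.005 when each array was centred on its median. Centring moves the difference of every cluster by the same amount, so the distance between the medians of members and of all clusters stays unchanged. From 8 h to 24 h, 32 lay above 0 (69.6%, against 57.9%), 12 were separated upwards (26.1%, against 15.2%) and 0 downwards (against 6.4%). The median of that step was 0.098 beside 0.024. The comparisons share arrays, so their counts are not independent of each other.

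Leaving out the untreated array that stood apart changed the sizes of single differences. An unadjusted p below 0.05 at 24 h was found for 14 members (30.4%, against 20.4% of clusters), 13 of them higher and KLHL13 lower. These 14 were picked by their p with untreated replicate 2 included. Leaving out that array made the difference smaller in 12 of the 14. No share of all clusters was computed for this, so the count does not test the effect of that array. The ratio of the new to the old value went from 0.482 in KLHL5, 0.493 in KLHL6, 0.537 in KLHL2 and 0.548 in KLHL20 to 0.857 in KLHL24, 0.880 in KLHL28 and 0.908 in KBTBD3. It was 1.11 in KLHL21 and 1.23 in KLHL13. Without that array 0 members were called at 24 h, beside 1.43% of clusters. An unadjusted p below 0.05 at 24 h was then found for 12 members, and the share of all clusters was not computed. The median of members was then 0.062 beside 0.009, and 27 again lay above 0 (58.7%, against 52.5%). At 8 h 0 members were called without it, beside 1.32% of clusters, and 18 lay above 0 (39.1%, against 44.7%).

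**Figure D3:**
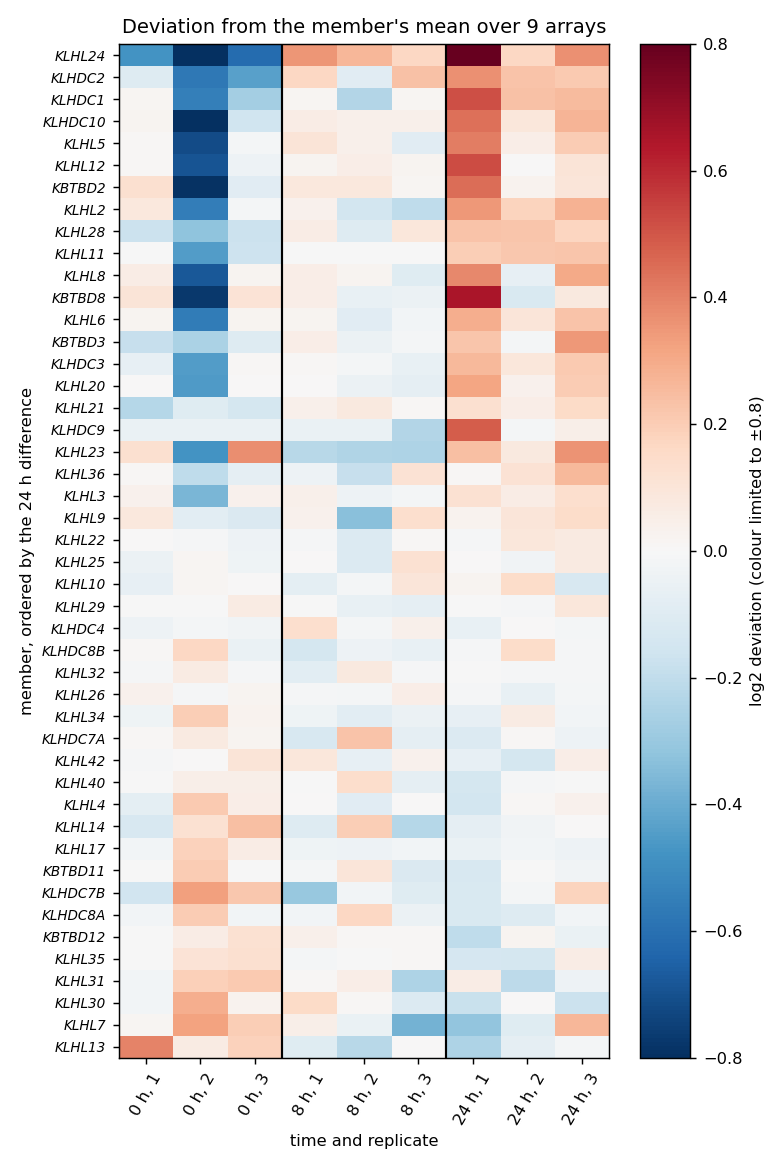
Each member's log2 deviation from its own mean over the 9 arrays (colour, limited to ±0.8), with arrays in columns and the 46 members in rows ordered by the 24 h difference. Untreated replicate 2 is the darkest blue column in the upper rows and was the lowest array for 19 members, while KLHL24 is blue on all 3 untreated arrays and red on all 6 treated arrays.

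The ligase parts that the adaptors bind were read from gene lists. Of 20 measured genes of the cullin-RING core and neddylation, 0 were called at 8 h, 1 rose and 0 fell at 24 h, and 0 were called from 8 h to 24 h, beside the shares of all clusters given above (0.595%, 1.62% and 0.327%). The 1 was SENP8, the protease that matures the ubiquitin-like NEDD8 and trims it from proteins. It read 8.57, 8.61 and 8.69 at 0 h, 8.84, 8.69 and 8.87 at 8 h, and 9.00, 9.00 and 9.06 at 24 h, and its 24 h difference was 0.40 ± 0.07 (adjusted p = 0.035). Without untreated replicate 2 that difference was 0.39 (adjusted p = 0.059). CUL3, the scaffold of the BTB adaptors, differed by 0.16 ± 0.18 at 8 h (adjusted p = 0.69) and 0.32 ± 0.18 at 24 h (adjusted p = 0.33), and the values without untreated replicate 2 were -0.07 at 8 h and 0.09 at 24 h. At 8 h the smallest p-values were those of ELOB, an elongin of CUL2 ligases (0.37 ± 0.09, adjusted p = 0.11), and DCUN1D2, which helps to attach NEDD8 to cullins (0.50 ± 0.15, adjusted p = 0.17). Between 8 h and 24 h they were those of SENP8 (0.22 ± 0.07, adjusted p = 0.28) and ELOB (-0.17 ± 0.09, adjusted p = 0.58). The list's median was 0.136 at 8 h, 0.214 at 24 h and 0.043 between them. At 8 h 19 of 20 genes lay above 0 (47% of all clusters). Without untreated replicate 2 it was 12 of 20 at 8 h with a median of 0.061 (44.7% and -0.016 over all clusters). At 24 h 19 of 20 genes lay above 0 (53.1% of all clusters, whose median was 0.017). Without untreated replicate 2 it was 14 of 20 with a median of 0.125 (52.5% and 0.009 over all clusters).

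None of the 10 subunits of the COP9 signalosome, which removes NEDD8 from cullins, was called. COPS5, its catalytic subunit, had the smallest p at 8 h (0.30 ± 0.10, adjusted p = 0.21) and at 24 h (0.24 ± 0.10, adjusted p = 0.23). GPS1 came next at 8 h (-0.14 ± 0.07, adjusted p = 0.39) and COPS4 at 24 h (0.56 ± 0.26, adjusted p = 0.26; 0.23 without untreated replicate 2). COPS6 (0.39 ± 0.13, adjusted p = 0.34) and COPS4 (0.31 ± 0.26, adjusted p = 0.74) had the smallest between 8 h and 24 h. The median was 0.093 at 24 h and -0.030 without untreated replicate 2.

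Of 22 other BTB adaptors of CUL3, 0 were called in any of the 3 comparisons. KEAP1 itself read 9.23, 8.98 and 9.23 at 0 h, 9.49, 9.27 and 9.50 at 8 h, and 9.48, 9.35 and 9.58 at 24 h. Its differences were 0.27 ± 0.10 at 8 h (adjusted p = 0.27) and 0.32 ± 0.10 at 24 h (adjusted p = 0.16), or 0.19 and 0.24 without untreated replicate 2, and treated and untreated arrays did not overlap. The smallest p-values were those of KCTD2 and KCTD10 at 8 h (0.31 ± 0.08 and 0.27 ± 0.09, adjusted p = 0.14 and 0.21). At 24 h they were those of KCTD13 and SPOP (0.27 ± 0.07 and 0.32 ± 0.08, adjusted p = 0.092 and 0.11). Between 8 h and 24 h ENC1 (0.38 ± 0.11, adjusted p = 0.27) and IVNS1ABP (0.49 ± 0.19, adjusted p = 0.41) had the smallest. IVNS1ABP, a BTB-kelch protein named for its binding to an influenza protein, read 10.14, 9.36 and 10.06 at 0 h, 9.37, 9.27 and 9.21 at 8 h, and 9.92, 9.64 and 9.78 at 24 h. Its 8 h difference was -0.57 ± 0.19 with all arrays (adjusted p = 0.22) and -0.81 ± 0.09 without untreated replicate 2, where it was called (adjusted p = 0.018). The list's median at 24 h was 0.145, and 0.133 without that array.

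Genes for known substrates of these adaptors moved at the transcript level in 3 of 24 cases at 24 h, all lower, and in the same 3 from 8 h to 24 h, beside 1.62% and 0.327% of all clusters called. They were PLK1, AURKB and AURKA, the mitotic kinases that KLHL22, the pair KLHL9 and KLHL13, and KLHL18 act on as proteins. PLK1 fell by 1.40 ± 0.10 on the log2 scale from 0 h to 24 h (adjusted p = 0.0014) and by 1.42 ± 0.10 from 8 h (adjusted p = 0.0025). AURKB fell by 1.34 ± 0.09 (adjusted p = 0.0014) and by 1.07 ± 0.09 (adjusted p = 0.0061). AURKA read 9.23, 9.13 and 9.17 at 0 h, 9.42, 9.28 and 9.40 at 8 h, and 8.53, 8.40 and 8.43 at 24 h. It fell by 0.73 ± 0.07 from 0 h (adjusted p = 0.0054) and by 0.91 ± 0.07 from 8 h (adjusted p = 0.0035), while its 8 h difference was 0.19 ± 0.07 (adjusted p = 0.24). Without untreated replicate 2 TCOF1, a substrate of KBTBD8, was also called at 24 h (-0.40 ± 0.06, adjusted p = 0.033; -0.32 ± 0.08 with all arrays, adjusted p = 0.10). At 8 h 0 of the 24 were called, and the smallest p-values were those of RC3H2 (0.44 ± 0.10, adjusted p = 0.10) and AURKB (-0.26 ± 0.09, adjusted p = 0.21). The list's median at 24 h was -0.015. None of the mitotic adaptors themselves passed at 24 h, and the difference between an adaptor and its substrate was not tested.

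**Figure D4:**
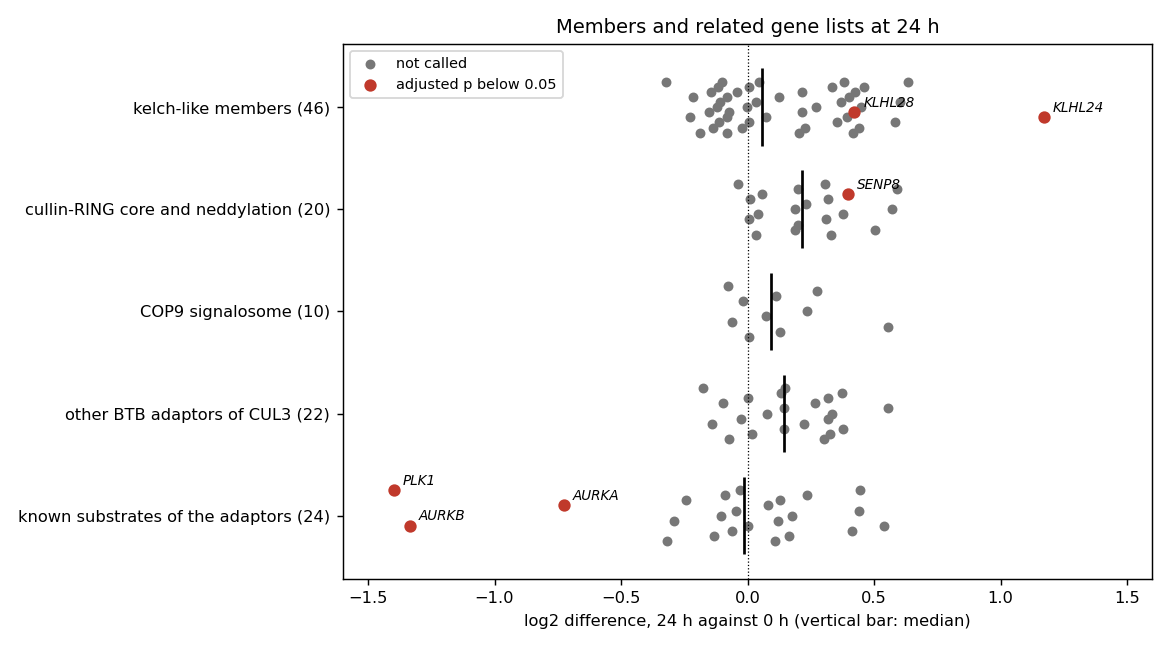
Log2 difference at 24 h against 0 h (horizontal axis) for the 46 members and 4 related gene lists, with the number measured in brackets and vertical bars at the medians. Each point is a gene and red marks an adjusted p below 0.05; the red points are KLHL24 and KLHL28 among members, SENP8 in the cullin list, and PLK1, AURKB and AURKA far to the left among substrates.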

How the data were processed

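Cultures were grouped by the labels, 3 arrays per group. The authors summarised the core probes of each transcript cluster with gene-level RMA and sketch-quantile normalization in Affymetrix Expression Console, per the labels, and deposited log2 signals for 22011 clusters. For the software versions, annotation release and genome build of that step, nothing is stated: not given in the sources used here. Quantile steps pull the arrays to a common distribution, and arrays have no depth, so their number limits the precision. The annotation table gave 1 symbol for 14432 clusters, several for 2408 and none for 5171, and all 46 members matched the gene table by gene ID.

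The deposited values entered lmFit and eBayes of limma 3.58.1, run in R 4.3.3, with 1 mean per group over all 9 arrays, no covariate and no filter. The 3 comparisons and the F-test were adjusted by Benjamini-Hochberg over all 22011 clusters, two-sided. The labels call the samples separate cultures. The script was tested on simulated data.

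Named with every array's value by a fixed rule were called members, KLHL24, and the 3 largest rises and 3 largest falls of each comparison. Array values of KLHL5, KLHL6, KLHL11, KLHL21, KLHDC3, KBTBD2 and KBTBD3, some of them in part, were given outside this rule. Of other lists up to 4 called genes or the 2 with the smallest p were named, most without array values. Members, role groups and lists were chosen with earlier results of these data known. Alternatives were a replicate block, array weights, trended and robust eBayes, quantile normalization, centring, leaving out the lowest 25% of clusters, averaging clusters of a symbol, 2-group fits, a threshold of 0.01 and leaving out each array. Gene-by-gene array weights, clusters with several symbols and the motif TGANTCAGC were added after seeing the data.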

Additional observations from a re-analysis of the deposited data

How the results depend on the processing

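Of the 21 results of named members, 0 changed sign under the alternatives, though small differences of members outside them did without untreated replicate 2. Counts and the F-test have no sign, and several alternatives leave the differences as they are, so a reversal was not possible there. Members called (0 at 8 h, 2 at 24 h, 0 from 8 h to 24 h, 1 by the F-test) became 16, 21, 2 and 24 with array weights, whose REML fit stopped before convergence and called 9603, 9010, 1516 and 11791 clusters in all. Gene-by-gene array weights gave 5, 8, 2 and 8 members, beside 1703, 1889, 1325 and 2912 clusters in all. The main fit called 131, 357, 72 and 298 clusters. At 8 h, quantile normalization, centring and leaving out the lowest 25% of clusters each gave 1, KLHL24, beside 390, 288 and 302 clusters. Without 1 array the 8 h count was 0 to 2 (KLHDC2 and KLHL24 without untreated replicate 1, beside 654 clusters). At 24 h, quantile normalization, centring and leaving out the lowest 25% of clusters each gave 3, adding KLHDC2, beside 560, 510 and 517 clusters. The 2-group fit and the 0.01 threshold gave 0 there, beside 20 and 24 clusters. Without 1 array the 24 h count was 0 to 5. Without untreated replicate 1 it held KLHDC1, KLHDC2, KLHL11, KLHL24 and KLHL28, beside 768 clusters. It held KLHL28 without 8 h replicate 2, and 0 members without any of the other 7. From 8 h to 24 h the count without 1 array was 0 to 0. The F-test gave 0 with trended and robust eBayes or the 0.01 threshold, 2 without the lowest 25% of clusters (beside 498 clusters), and 0 to 1 without 1 array. The cause of these changes was not tested.

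Replicate numbers are shared by the groups. Deviations of same-numbered arrays correlated between -0.137 and 0.394. The 2 highest values of all pairs, 0.394 and 0.376, were of same-numbered arrays, but not every same-numbered pair exceeded 0.1 and not every array correlated best with its own number, so the numbers were not taken to pair the samples. Whether they mark a shared day or batch was not stated. The replicate block gave 4 members at 24 h, KLHDC1, KLHDC2, KLHL24 and KLHL28, beside 378 clusters in all. It changed no other count of members.

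The median of members at 24 h was 0.009 with quantile normalization, -0.005 with centring and 0.165 over the 40 members above the lowest 25% of clusters (0.051 to 0.079 without 1 array). From 8 h to 24 h it was 0.047 and 0.057 with the first pair (0.066 to 0.101), and at 8 h -0.014 to 0.031 without 1 array. The median of all clusters was not computed with quantile normalization, centring or fewer clusters. Centring moves it by the same amount as the median of members. 

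Calls in the lists of cullin core, COP9, other BTB adaptors and substrates were 11, 5, 11 and 13 at 8 h with array weights, 9, 3, 12 and 14 at 24 h, and 1, 1, 2 and 6 between them. Gene by gene they were 2, 1, 4 and 4 at 8 h, 4 and 8 for the last pair at 24 h, and 1, 1, 2 and 6 between them. The calls over all clusters with these weights are given above. The cullin list's count at 24 h, 1 for SENP8, became 0 in 11 of 19 alternatives. Among these were quantile normalization, centring, 2 groups, the 0.01 threshold and the fit without untreated replicate 2. Substrates gave 1 at 8 h with quantile normalization and 5 at 24 h with centring. Without 1 array the lists gave 0 to 1, 0 to 1, 0 to 1 and 0 to 2 at 8 h, 0 to 1, 0 to 1, 0 to 0 and 3 to 4 at 24 h, and 0, 0, 0 and 2 to 3 between them. Of 398 alternatives for 21 results of named members, 342 stayed on their side of the threshold, 30 lost a call and 26 gained one. The results that were calls in the main fit were KLHL24 and KLHL28 at 24 h and KLHL24 by the F-test. These calls held in 9, 10 and 8 of 19 alternatives each, and all 30 losses were theirs.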
